A study of Beta vulgaris with 6 samples.

Results

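Circular RNAs (circRNAs) that were found in drought-stressed and in well-watered sugar beet leaves, but not in every library, form an intermediate class between the abundant circRNAs read in all libraries and those read in 1 condition only. A circRNA was placed in this class when it had a read count above 0 in at least 1 drought library and at least 1 well-watered library, and a count of 0 in at least 1 of the 6 libraries. The circRNAs were thus selected on their listed read counts in the drought and well-watered libraries. The choice gave 131 of the 563 listed circRNAs, which is 23.3%. Together they held 3498 of 39966 reads, or 8.75%. The counts of these same libraries made the choice, so how often the circRNAs were found and how their levels spread are given as descriptions, without a test.

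The libraries came from total RNA of leaves of sugar beet (Beta vulgaris) of genotype KWS9147. There were 3 libraries from seedlings under drought stress and 3 from well-watered seedlings, and all 6 share the genotype and the tissue. The labels give neither the severity nor the length of the drought. They also do not say whether the libraries of a group came from separate plants. The p-values thus rest on the spread between these libraries, which may be technical and which the main fit pooled over circRNAs. The leaf label could not be checked against marker genes, because the table names circRNAs by number only and pairs none with a gene.

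A circRNA forms when the splicing machinery joins a downstream splice donor to an upstream splice acceptor. The product is a closed loop without free ends, which exonucleases that degrade linear RNA from its ends cannot attack. In sequencing data such a loop is recognised by reads that cross the back-splice junction, so a circRNA of low abundance yields few reads and is easily missed in a library. In plants, circRNAs from exons, introns and intergenic regions have been described, and many are found under some conditions or in some tissues.

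Depth, which here means the total of listed circRNA reads, differed between the groups and bears on every count that follows. The total sequenced reads were not analysed here. Whether depth followed the sequencing or the amount of circRNA in the leaves was not tested. Summed over all listed circRNAs, the depth was 8586, 12354 and 5731 reads in drought replicates 1, 2 and 3, against 4357, 5168 and 3770 reads in well-watered replicates 1, 2 and 3. The smallest listed count above 0 was 2, since no value of 1 is listed. All shares given here are of these listed reads. The totals behind the deposited TPM were larger, at 12205, 17019 and 8021 reads for drought replicates 1, 2 and 3 and 6178, 7499 and 5447 for well-watered replicates 1, 2 and 3, and what the further reads were was not analysed here. Where no read was seen, a count of 0 still allows up to 3 reads. That is 0.0349%, 0.0243% and 0.0523% of the reads in drought libraries 1, 2 and 3. In well-watered libraries 1, 2 and 3 it is 0.0689%, 0.0580% and 0.0796%. As no value of 1 is listed, a listed 0 may stand for 1 read, and its limit would then be higher. These limits, and the intervals given with shares, cover counting error only, since the reads carry no molecular identifiers and may be copies of the same molecule.

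The intermittent circRNAs were found more often under drought when the libraries were taken at their own depth. Of the 131, 90, 107 and 78 had reads in drought libraries 1, 2 and 3, against 72, 59 and 43 in well-watered libraries 1, 2 and 3. Every drought library thus held more of them than every well-watered library. A drought library held 91.7 ± 14.6 of them and a well-watered library 58 ± 14.5 (mean ± SD, n = 3 each). At an equal depth of 3770 reads, counting a circRNA as found at 2 reads or more, the expected numbers were 60.6, 65.6 and 67.2 in the drought libraries. In the well-watered libraries they were 68.9, 54.3 and 43. The groups then overlapped, with 64.5 ± 3.43 per drought library and 55.4 ± 13.0 per well-watered library (mean ± SD, n = 3 each). The difference of 9.09 was smaller than the spread among the well-watered libraries and larger than that among the drought libraries. At full depth the difference was 33.7. Thinning to equal listed reads would also remove a difference in the amount of circRNA.

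**Figure D1:**
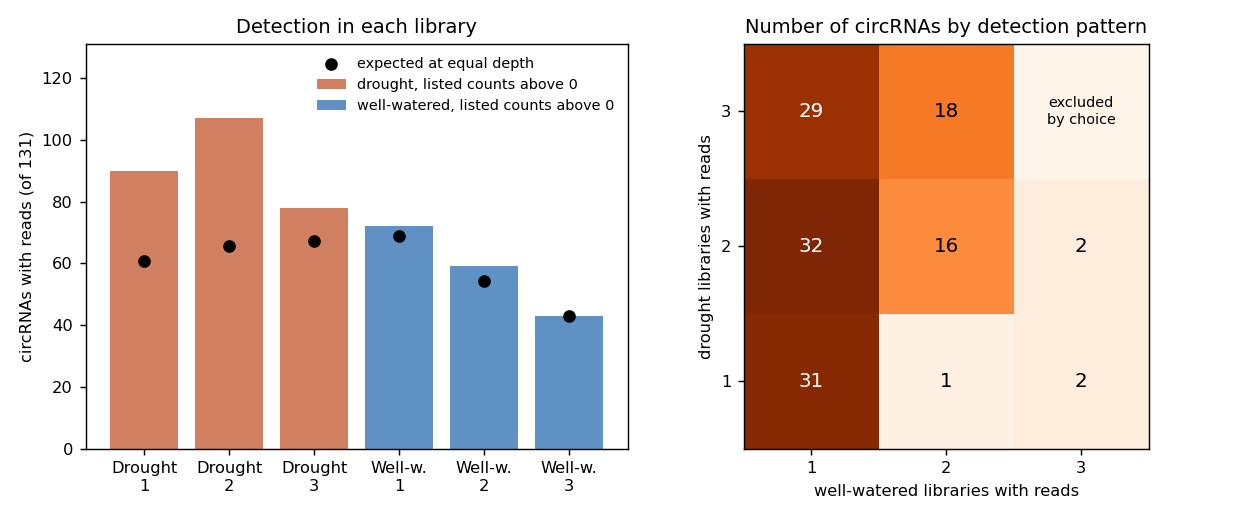
The left panel shows how many of the 131 intermittent circRNAs had reads in each library (bars) and the number expected at an equal depth of 3770 reads (points). Bars reach 78 to 107 in drought libraries and 43 to 72 in well-watered libraries, while the points of the groups overlap. The right panel counts circRNAs by the number of drought libraries (vertical) and well-watered libraries (horizontal) in which they had reads.

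The patterns of detection were uneven between the groups. Of the class, 79 had reads in more drought than well-watered libraries, 47 in as many of each, and 5 in fewer drought libraries. All 3 drought libraries held 47 of the circRNAs, against 4 in all 3 well-watered libraries. Reads in 1 library of a group were seen for 34 circRNAs under drought and for 92 in well-watered leaves. The most common pattern was 2 drought libraries with 1 well-watered library, shown by 32 circRNAs. It was followed by 1 library of each group, shown by 31, and by 3 drought libraries with 1 well-watered library, shown by 29. A further 18 circRNAs had reads in 3 drought and 2 well-watered libraries, and these held 33.9% of all reads of the class. The 31 circRNAs found in 1 library of each group had between 4 and 19 reads in total and held 7.69%.

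Single libraries did not contribute evenly to these patterns. Among the 92 circRNAs found in 1 well-watered library, that library was replicate 1 for 42, replicate 2 for 29 and replicate 3 for 21. The shallowest, replicate 3, had the fewest, but the deepest, replicate 2, had fewer than replicate 1. Among the 50 circRNAs found in 2 drought libraries, the library without reads was replicate 3 for 28, replicate 1 for 15 and replicate 2 for 7. The depth of the drought libraries runs in the opposite order, and its part in the result was not tested. Drought libraries 1 and 2 shared 75 circRNAs of the class, which is 83.3% of those found in library 1 and 70.1% of those in library 2. Well-watered libraries 1 and 2 shared 21, which is 29.2% and 35.6% of those found in each.

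The share of reads taken by the class was similar in the groups, although it was found more often under drought. It held 665, 1195 and 569 reads in drought libraries 1, 2 and 3, and 418, 390 and 261 reads in well-watered libraries 1, 2 and 3. As a share, this was 7.75% (95% exact binomial interval 7.19 to 8.33), 9.67% (9.16 to 10.2) and 9.93% (9.17 to 10.7) under drought. In well-watered leaves it was 9.59% (8.74 to 10.5), 7.55% (6.84 to 8.30) and 6.92% (6.13 to 7.78). The groups overlapped, with 9.12% ± 1.19 per drought library and 8.02% ± 1.40 per well-watered library (mean ± SD, n = 3 each). The difference of 1.09 percentage points was smaller than either spread, and with the 3 most abundant circRNAs of the table left out of the totals it was -0.70, with 30.6% ± 2.40 per drought library and 31.3% ± 1.64 per well-watered library. Of the totals behind the TPM, the class held 6.52% ± 0.930 per drought library and 5.59% ± 1.04 per well-watered library (mean ± SD, n = 3 each).

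Where a circRNA of the class had reads, its count was low in both groups. The median was 5, 7 and 5.5 reads in drought libraries 1, 2 and 3, and 4.5, 6 and 5 reads in well-watered libraries 1, 2 and 3. As a share of the library, these medians were 0.0582%, 0.0567% and 0.0960% under drought, against 0.103%, 0.116% and 0.133% in well-watered leaves, so that all drought medians lay below all well-watered medians. A minimum of 2 listed reads is a larger share of a shallower library, and the well-watered libraries were the shallower ones. Of the 449 values above 0, 57 were at that minimum. Totals per circRNA ran from 4 to 171 reads with a median of 20, and 5 circRNAs had 100 reads or more. The 10 with the highest mean share held 28.2% of the reads of the class. For comparison, the median total was 100 reads for the 39 circRNAs found in all 6 libraries, 5 for the 348 found only under drought and 4 for the 45 found only in well-watered leaves. These sets were made from the same counts, so their difference was not tested.

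At the edge of the class stand the 20 circRNAs with reads in 5 libraries. Their totals ran from 26 to 171 reads with a median of 52. The missing library was a well-watered one for 18 of them and a drought one for 2. Just outside the class were the circRNAs found in all 6 libraries with the fewest reads. novel_circ_0000755 had 6, 4 and 9 reads under drought and 7, 6 and 3 in well-watered leaves. novel_circ_0000806 had 5, 7 and 4 reads under drought and 8, 8 and 3 in well-watered leaves. novel_circ_0000002 had 3, 7 and 12 reads under drought and 8, 6 and 3 in well-watered leaves. Their totals of 35, 35 and 39 reads lie within the range of the 20 circRNAs just inside.

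A listed 0 can be a missed circRNA or a low one, and the size of the gap was described by the number of reads that the library would have held at the mean share of the other 2 libraries of its group. The class has 337 such values at 0, with 118 in drought libraries and 219 in well-watered libraries. The number was 3 reads or fewer for 66 of 118 values (55.9%) in drought libraries and 134 of 219 (61.2%) in well-watered libraries. A count of 0 could not be told from such a mean. Where a circRNA had reads in 1 library of a group, another listed 0 stayed in the mean. This held for 34 circRNAs in the drought libraries and 92 in the well-watered libraries. Their mean lay below the level where they were read, so low numbers are partly built in. Whether a 0 differed from that level was not tested. The number exceeded 10 reads for 8 values in drought libraries and 5 in well-watered libraries. The largest gap was novel_circ_0000944 in drought library 1, which had 0 reads where the other drought libraries would give 56.8. In well-watered leaves it was novel_circ_0000774 in library 3, with 0 reads against 19.5.

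**Figure D2:**
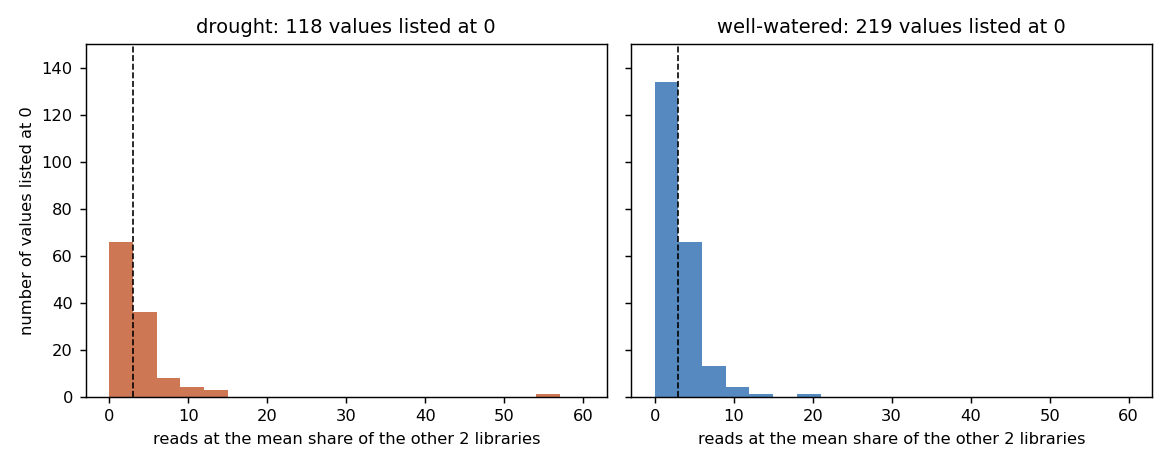
Histogram of the values listed at 0, by the number of reads the library would hold at the mean share of the other 2 libraries of its group, for drought (left) and well-watered libraries (right). Any listed 0 among those 2 libraries stays in the mean. The dashed line marks 3 reads. Most values lie at or left of it, and 1 drought value stands apart at 56.8 reads.

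Abundance between drought and well-watered leaves was then compared with edgeR's quasi-likelihood test on the counts, fitted over all 210 listed circRNAs with at least 10 reads in total, with p-values adjusted over those 210 by the Benjamini-Hochberg method. The fit took the spread between libraries from all tested circRNAs together (infinite prior degrees of freedom). A p-value from it thus does not weigh the spread of its own circRNA. Of the 131 intermittent circRNAs, 107 had enough reads to enter the fit. At an adjusted p under 0.05, 3 of them differed between the groups, with 2 higher and 1 lower under drought. Over all 210 the share past that threshold was 3.81%, with 2.86% higher and 0.952% lower. At an unadjusted p under 0.05 there were 7, of which 6 were higher and 1 was lower, beside 12.4% of all 210 (10.5% higher and 1.9% lower). When libraries were scaled by their totals, 3 passed the adjusted threshold, with 2 higher (beside 2.38% of all 210) and 1 lower (beside 1.43%). At an unadjusted p under 0.05 there were then 6, with 4 higher (beside 7.14%) and 2 lower (beside 5.24%). Since the counts that chose the class are those tested, nothing is read from these shares.

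Direction depended on scaling in this class. With TMM factors, 39 of the 107 had a log2 fold change below 0, beside 28.6% of all 210. With library totals it was 48, beside 37.6%. Neither scaling centred all 210 on 0, as their medians show. The median log2 fold change was 0.54 for the 107 and 0.99 for all 210 with TMM, and 0.17 and 0.63 with library totals, so the scaling moved the median of all circRNAs by more than 0.1. With library totals and without the 3 most abundant circRNAs, the median of the 107 turned to -0.12, with 55 below 0 and 52 above, against 0.40 for the 207 circRNAs tested. At a minimum of 30 reads it was 1.01 for the 34 circRNAs of the class left, with 6 below 0 and 28 above, against 0.27 for the 77 tested. By the mean share of library reads, 69 of the 131 were lower and 62 higher under drought.

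**Figure D3:**
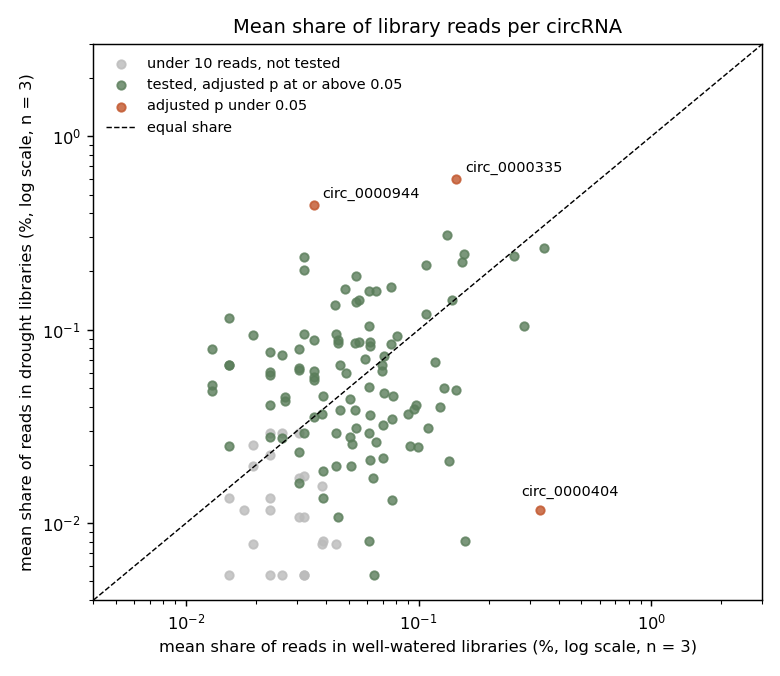
Mean share of library reads (%) of each of the 131 intermittent circRNAs in the 3 drought libraries (vertical, log scale) against the 3 well-watered libraries (horizontal, log scale). Points above the dashed line had a higher share under drought (62) and points below a lower one (69). The 3 circRNAs with an adjusted p under 0.05 stand far from the line.

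Among the circRNAs higher under drought, novel_circ_0000335 had the most reads of the class. Drought leaves gave 48, 65 and 41 reads of it, and well-watered leaves gave 5, 0 and 12. Every drought share was above every well-watered share, with means of 0.600% ± 0.101 and 0.144% ± 0.161 of the reads (SD, n = 3 each). edgeR estimated a log2 fold change of 2.50 with an approximate SE of 0.62 and an adjusted p of 0.00336, and of 2.10 with library totals (edgeR adjusted p = 0.0211). novel_circ_0000944 had 0, 75 and 41 reads under drought and 0, 0 and 4 in well-watered leaves. The groups overlapped at 0, since drought library 1 held none, and the means were 0.441% ± 0.386 and 0.0354% ± 0.0613 (SD, n = 3 each). edgeR placed its log2 fold change at 4.04 with an approximate SE of 0.84 and an adjusted p of 0.000209. Both calls were lost without any 1 of the drought libraries and without well-watered replicate 2: the edgeR adjusted p then ran from 0.0794 to 0.426 for novel_circ_0000335 and from 0.0914 to 0.359 for novel_circ_0000944. They were also lost at a minimum of 30 reads (edgeR adjusted p of 0.144 and 0.150) and with DESeq2 (adjusted p of 0.245 and 0.782). Without the 3 most abundant circRNAs and with library totals, novel_circ_0000335 alone of the pair was lost (edgeR adjusted p = 0.0768).

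4 more circRNAs were higher at an unadjusted p under 0.05 and did not pass the adjusted threshold. novel_circ_0000686 had 20, 29 and 14 reads under drought and 0, 5 and 0 in well-watered leaves, without overlap of the shares. Its share was nearly the same in the drought libraries, at 0.237% ± 0.0061 (SD, n = 3), against 0.0322% ± 0.0559 in well-watered leaves, and edgeR gave 3.09 for the log2 fold change, with an approximate SE of 1.04 and an adjusted p of 0.0693. novel_circ_0000112 had 31, 11 and 9 reads under drought and 0, 5 and 0 in well-watered leaves (log2 fold change 2.90, edgeR adjusted p = 0.189). The well-watered reads of both came from replicate 2 alone, so without that library they have no well-watered reads and no longer belong to the class. In the fits without each of the other libraries, the edgeR adjusted p ran from 0.193 to 0.426 for novel_circ_0000686 and from 0.226 to 0.765 for novel_circ_0000112. novel_circ_0000448 had 18, 29 and 7 reads under drought and 7, 0 and 0 in well-watered leaves (log2 fold change 2.31, edgeR adjusted p = 0.323), with all its well-watered reads in replicate 1. novel_circ_0000439 had 42, 30 and 11 reads under drought and 0, 11 and 7 in well-watered leaves (log2 fold change 1.64, edgeR adjusted p = 0.287). For novel_circ_0000448 and novel_circ_0000439 the unadjusted p also rose above 0.05 with library totals (0.127 and 0.108), at a minimum of 30 reads (0.112 and 0.114) and with DESeq2 (0.144 and 0.185). With DESeq2 that of novel_circ_0000112 was 0.0667.

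novel_circ_0000249 was among the 4 circRNAs of the class with the highest log2 fold change, at 3.12, and did not pass either threshold (edgeR unadjusted p = 0.104, adjusted p = 0.353). It had 9, 6 and 11 reads under drought and 2, 0 and 0 in well-watered leaves. From these 26 and 2 reads, over the summed depth of each group, the ratio of drought to well-watered share was 6.48 (95% exact interval 1.62 to 56.3, counting error only). novel_circ_0000903 led the circRNAs found in 1 library of each group, with 17, 0 and 0 reads under drought and 2, 0 and 0 in well-watered leaves. Its ratio of 4.24 (95% exact interval 1.01 to 37.8, counting error only) rests on drought library 1 and well-watered library 1 alone. The 2 well-watered reads are the smallest count listed. It did not pass either threshold (edgeR unadjusted p = 0.255, adjusted p = 0.515).

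The call in the other direction was novel_circ_0000404. It had 3, 0 and 0 reads under drought and 15, 17 and 12 in well-watered leaves. The groups did not overlap, and the well-watered share was steady, at 0.0116% ± 0.0202 per drought library and 0.331% ± 0.0131 per well-watered library (mean ± SD, n = 3 each). With reads and depth summed over the libraries of each group, the ratio of drought to well-watered share was 0.0340 (95% exact interval 0.0068 to 0.106, counting error only). edgeR estimated a log2 fold change of -4.16 with an approximate SE of 1.12 and an adjusted p of 0.00801. The call was lost without any 1 of the drought libraries (edgeR adjusted p of 0.113, 0.319 and 0.218 without replicates 1, 2 and 3, the first of which held all its drought reads), without well-watered replicate 2 (0.0534) and with DESeq2 (DESeq2 adjusted p = 0.0658).

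novel_circ_0000764 showed the same layout at lower counts. It had 0, 3 and 0 reads under drought and 7, 8 and 6 in well-watered leaves. Its share was 0.0081% ± 0.0140 per drought library and 0.158% ± 0.0030 per well-watered library (mean ± SD, n = 3 each), without overlap. With reads and depth summed over the libraries of each group, the ratio of drought to well-watered share was 0.0712 (95% exact interval 0.0136 to 0.238, counting error only). It is not the ratio of the mean shares. The log2 fold change of -3.37 (approximate SE 1.84) missed both thresholds (edgeR adjusted p = 0.351, unadjusted p = 0.0673). On library totals the unadjusted p was 0.0285 and the edgeR adjusted p was 0.352.

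These were 2 of the 5 circRNAs found in fewer drought than well-watered libraries, a group named after its values were seen. novel_circ_0000295 had 0, 26 and 6 reads under drought and 8, 7 and 20 in well-watered leaves. Its shares overlapped, at 0.105% ± 0.105 per drought library and 0.283% ± 0.216 per well-watered library (mean ± SD, n = 3 each), with a log2 fold change of -0.95 (edgeR adjusted p = 0.513). novel_circ_0000044 had 7, 8 and 0 reads under drought and 8, 6 and 5 in well-watered leaves, and its drought shares were all below its well-watered shares. Its log2 fold change of -0.95 (approximate SE 1.39) did not pass the test (edgeR adjusted p = 0.798). novel_circ_0000407 had 0, 8 and 0 reads under drought and 0, 4 and 5 in well-watered leaves, and its shares overlapped.

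The remaining circRNAs with the lowest log2 fold changes each drew most of their well-watered reads from 1 library. novel_circ_0000242 had 0, 2 and 0 reads under drought and 0, 10 and 0 in well-watered leaves. novel_circ_0000310 had 0, 5 and 3 reads under drought and 0, 17 and 0 in well-watered leaves. novel_circ_0000769 had 2, 2 and 0 reads under drought and 10, 0 and 0 in well-watered leaves. novel_circ_0000486 with 0, 3 and 0 against 8, 0 and 0 reads, novel_circ_0000055 with 0, 4 and 0 against 0, 7 and 0 reads, and novel_circ_0000720 with 4, 2 and 0 against 5, 15 and 0 reads (drought against well-watered in each) overlapped between the groups too. In these 6, the log2 fold change lay between -2.67 and -1.38, and the edgeR adjusted p between 0.492 and 0.830.

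**Figure D4:**
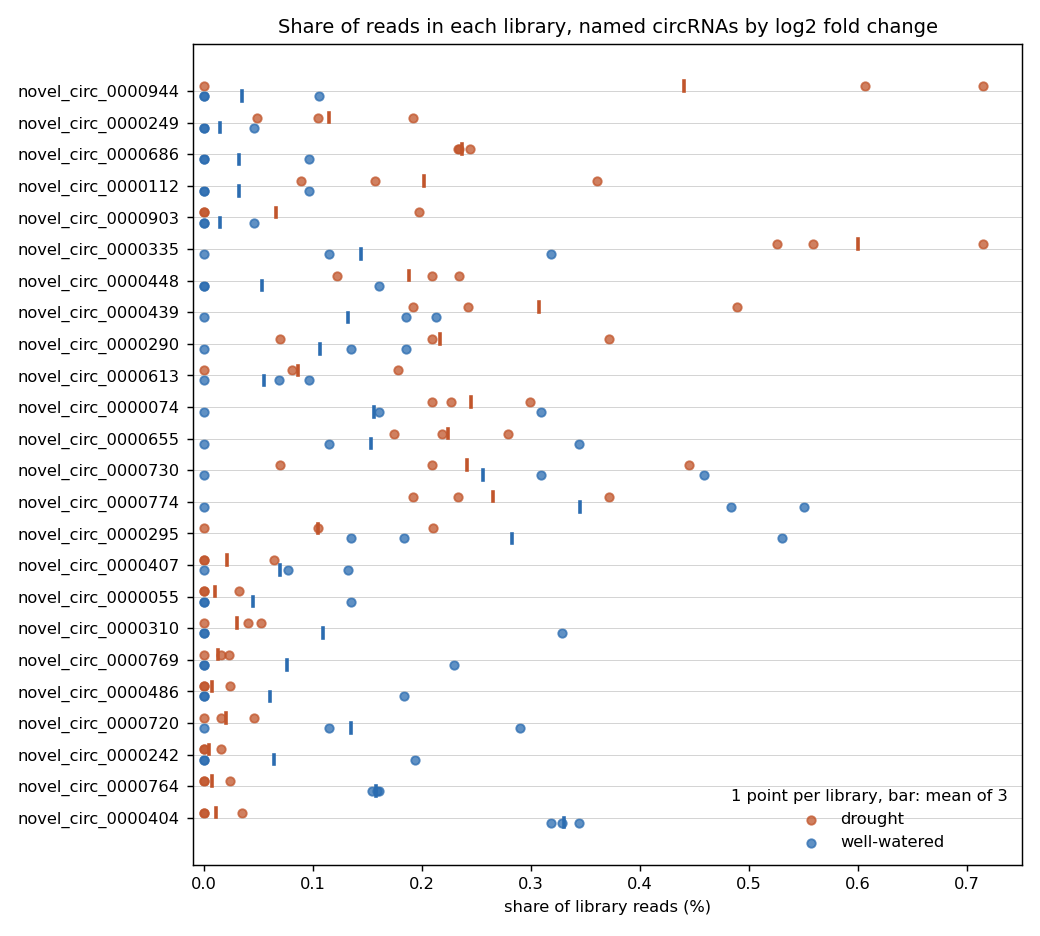
Share of library reads (%) in each library for the 24 named circRNAs, ordered by log2 fold change from highest (top) to lowest. Each point is 1 library, drought in the upper row and well-watered in the lower row of a circRNA, and each bar is the mean of 3. For novel_circ_0000404 and novel_circ_0000764 the 3 well-watered points lie close together and above the drought points, while most other circRNAs have at least 1 well-watered point at 0.

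Among the most abundant of the class, novel_circ_0000774 and novel_circ_0000730 had the smallest fold change estimates. novel_circ_0000774 had 20, 46 and 11 reads under drought and 24, 25 and 0 in well-watered leaves, with shares of 0.266% ± 0.0946 and 0.345% ± 0.301 (SD, n = 3 each). edgeR gave a log2 fold change of 0.10 with TMM and -0.38 with library totals (edgeR adjusted p of 0.948 and 0.843). novel_circ_0000730 had 6, 55 and 12 reads under drought and 20, 16 and 0 in well-watered leaves, with a log2 fold change of 0.39 with TMM and -0.08 with library totals (edgeR adjusted p of 0.830 and 0.975). For both, the well-watered library without reads was replicate 3, and the sign of the fold change turned without it, to -0.46 and -0.17. novel_circ_0000074, novel_circ_0000290 and novel_circ_0000655 had reads in every drought library and in 2 well-watered libraries. Their log2 fold changes were 1.04, 1.43 and 0.98, with approximate SEs of 0.76, 0.87 and 0.81 (edgeR adjusted p of 0.386, 0.351 and 0.486). These estimates were larger, and a high adjusted p does not show that the groups were alike. novel_circ_0000613, with 7, 22 and 0 reads under drought and 3, 5 and 0 in well-watered leaves, led those found in 2 libraries of each group (log2 fold change 1.17, edgeR adjusted p = 0.749).

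Groups that did not overlap in share were counted over the whole class. All drought shares lay above all well-watered shares for 7 of the 131, beside 4.62% of all 563 listed circRNAs. All drought shares lay below for 3, beside 1.95%. Apart from novel_circ_0000335, novel_circ_0000686 and novel_circ_0000249, the circRNAs above were novel_circ_0000229, novel_circ_0000533, novel_circ_0000641 and novel_circ_0000103, named after their values were seen. novel_circ_0000533 had 11, 16 and 13 reads under drought and 0, 2 and 4 in well-watered leaves, and novel_circ_0000229 had 16, 19 and 9 against 4, 7 and 0. The 3 below were novel_circ_0000404, novel_circ_0000764 and novel_circ_0000044. The choice of the class used these counts, so nothing is read from the shares.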

How the data were processed

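Circular RNA was measured in 6 leaf libraries, 3 drought and 3 well-watered, prepared with a directional Illumina kit per the labels' protocols. The authors deposited 1 table, with read counts that are not normalized and TPM columns, per the file headers. The deposited TPM of a library is its read count over 1 constant and was used only for an alternative total, which exceeded the sum of the listed counts in every library. DESeq 1.24.0 is named in the submitters' processing notes; the aligner, circRNA caller and genome build are not given in the sources used here. All columns were matched to libraries by title. Host genes, coordinates and sequences were not analysed here.

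Members and lists were chosen with earlier results of these data known. Counts were fitted with edgeR 4.0.16 in R 4.3.3 (quasi-likelihood F test, TMM, library size equal to the count sum, at least 10 reads in total, Benjamini-Hochberg adjustment); the approximate standard error is the size of the log2 fold change over the root of its F statistic. DESeq2 1.42.0 was an alternative. Shares, 95% exact binomial intervals and hypergeometric thinning to 3770 reads used SciPy 1.17.1. Each ratio of shares used reads and depth summed over the libraries of a group, not the mean shares. Library totals ran from 3770 to 12354 reads. The fits were tested on simulated data. The pass criteria of that check were revised after 2 earlier versions of them failed: recovery of large changes is low at the dispersion of these libraries, so it was recorded and not required there.

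The circRNAs named were those past an adjusted p of 0.05, the 10 of highest mean share, up to 10 in each direction at an unadjusted p under 0.05, the 8 lowest and 4 highest log2 fold changes, the one with most reads in each detection pattern, and the 3 with most reads in 5 libraries. Exceptions are marked. Alternatives were other scalings and filters, a replicate block, other detection minimums and leaving out each library. Same-numbered libraries of the groups had correlations of 0.086, -0.018 and 0.032 in their deviations from the group means, so the numbers were not taken as pairs.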

Additional observations from a re-analysis of the deposited data

How the results depend on the processing

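Totals behind the TPM, and fits without the 3 most abundant circRNAs, were chosen after seeing the data. The 3 calls at an adjusted p under 0.05 became 1 at a minimum of 30 reads, where 34 intermittent circRNAs were tested, and 0 with DESeq2, which gave 4 at an unadjusted p under 0.05. Both calls lost at 30 reads were still tested there, and DESeq2 tested the same 107. The prior degrees of freedom were infinite in the main fit and 7.77 at 30 reads. They were 2.17, 7.92 and 6.29 without drought replicates 1, 2 and 3, and 30.8 without well-watered replicate 2. They stayed infinite without well-watered replicate 1 or 3. They were also infinite without the 3 most abundant circRNAs, where novel_circ_0000335 was lost. The cause of the lost calls was not tested. Leaving out each library gave 0 to 4 calls, with 0 without any 1 drought library. Without drought replicates 1, 2 and 3, an edgeR unadjusted p under 0.05 was reached by 2, 4 and 4. Of these, 1, 1 and 0 had no drought reads left and were then outside the class. The 4 adjusted calls came without well-watered replicate 1 and included novel_circ_0000448. The 2 without well-watered replicate 2 were novel_circ_0000686 and novel_circ_0000112. Each of these 3 circRNAs then had no well-watered reads and was outside the class, which leaves 3 and 0 calls. Without well-watered replicate 3, novel_circ_0000944 likewise had none left, which leaves 2. With a replicate block, in libraries that share only a number, 3 calls remained, all 3 the same. The 7 at an unadjusted p under 0.05 became 4 with DESeq2 and from 2 to 15 over the fits that left out a library, with 15 on dropping well-watered replicate 3 and 11 on dropping well-watered replicate 1, of which 7 and 6 had no well-watered reads left. The difference in detection of 33.7 was 9.09 at equal depth and ran from 26 to 40.7 when a library was left out. The difference in share of 1.09 percentage points was -0.70 without the 3 most abundant circRNAs and ran from 0.55 to 1.88 when a library was left out. Calling 5 reads detected left 69 circRNAs under the rule, 59 of them among the 131.

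Of 293 alternative log2 fold changes of the 24 named circRNAs, 11 had the opposite sign, all for novel_circ_0000774 or novel_circ_0000730, neither of which passed an adjusted p of 0.05 in any setting. For novel_circ_0000774 (0.10) they were -0.38 with library totals, -0.13 with DESeq2 size factors in edgeR, -0.16 at 30 reads and -0.13 with DESeq2. Without the 3 most abundant circRNAs it was -0.55, and without well-watered replicate 3 and drought replicate 2 it was -0.46 and -0.19. For novel_circ_0000730 (0.39) they were -0.084 with library totals, -0.27 without the 3 most abundant circRNAs, -0.17 without well-watered replicate 3 and -0.55 without drought replicate 2. Over the fits that left out a library, novel_circ_0000774 ran from -0.46 to 0.52 and novel_circ_0000730 from -0.55 to 0.998. Few reads per circRNA limit every comparison here.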
